A study of Homo sapiens with 96 samples.

Results

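MRE11 and ERCC6 are 2 DNA repair genes whose transcripts held listed adenosine-to-inosine (A-to-I) editing sites in K562, an established human erythroleukemic cell line. In the paper, part of the sites tested by Sanger sequencing showed no editing, including sites recorded before. The sites described here are all those in the study's list that fell within either gene body on its own strand by GENCODE release 44 on GRCh38, which gave 19 of the 4149 listed sites, 13 in MRE11 and 6 in ERCC6. The list gave for each site an editing level, the fraction of reads with the edited base, in each RNA-seq sample. Levels of 96 samples in 93 conditions were used, each sample being 1 column of the list.

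Of these samples, 80 were from K562 cells and 16 from K562 derivatives. The K562 cells were untreated, given a single agent, given DMSO or the kinase inhibitors AZ-20, KU-60019 and NU7441 before DMSO, talazoparib, SN-38, etoposide or mirin, or given DMSO, etoposide, SN-38, talazoparib or cyclophosphamide for 6 h before actinomycin D, alpha-amanitin or a wash-out. The single agents were rapamycin, torin1, romidepsin, imatinib, etoposide, DMSO, actinomycin D and alpha-amanitin. The derivatives carried lentiviral vectors and were labelled as AsiSI, Cas9 or LINE overexpression lines or as CSB, LIG3 or MRE11A shRNA knockdown lines, each kept in water or doxycycline for 2 to 13 days. Of the 93 conditions, 90 had 1 sample and 3 had 2, and nothing in the labels says that samples came from separate cultures, so the tests below measure the spread between these samples. Knockdown of MRE11 and ERCC6 (CSB) in the named lines was not checked, since the list holds editing levels and no expression values.

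MRE11 is the nuclease of the MRN complex, which it forms with RAD50 and NBN and which senses and trims DNA double-strand breaks. Mirin is an inhibitor of this complex. ERCC6, also called CSB, is the ATPase that starts transcription-coupled nucleotide excision repair when RNA polymerase II stalls at a lesion. ADAR enzymes deaminate adenosines in double-stranded RNA, which in introns is commonly formed by inverted repeats, and inosine is read as guanosine by the sequencer. Etoposide and SN-38 trap topoisomerases on DNA, talazoparib inhibits PARP, and cyclophosphamide is a prodrug of an alkylating agent. Actinomycin D and alpha-amanitin block transcription.

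All 13 MRE11 sites (ENSG00000020922.13, chr11:94415570-94493885, minus strand) were classed by the authors as annotated, meaning already recorded as editing sites, as were 76.2% of all listed sites. Of these, 12 lay in intron 9 of the canonical transcript ENST00000323929.8, between 94468361 and 94468661, and 1 lay in the 3′ UTR, in exon 20, at 94418564. The 12 intronic sites were at least 1810 bases from the end of exon 9 and at least 468 bases from the start of exon 10, and the nearest annotated small RNA gene, MIR548L (chr11:94466495-94466580), was 1781 bases away from the closest of them. All 6 ERCC6 sites (ENSG00000225830.16, chr10:49454168-49539538, minus strand) were also annotated and intronic, 4 of them in intron 4 and 2 in intron 5 of ENST00000355832.10. Per length, MRE11 held 16.6 listed sites per 100 kb of gene body and ERCC6 held 7.03. Among the 1257 protein-coding genes with any listed site, 51 had at least as many sites as MRE11 and 159 had at least as many as ERCC6.

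Sites are numbered below in the order of transcription. In MRE11, sites 1 to 8 ran from 94468661 to 94468619 within 43 bases, sites 9 to 12 ran from 94468425 to 94468361 within 65 bases, and site 13 was the UTR site. Neighbouring sites of the first group were 1 to 9 bases apart and the groups were separated by 194 bases. In ERCC6, sites 1 to 3 ran from 49526723 to 49526697 within 27 bases, site 4 stood alone at 49525548, and sites 5 and 6 were at 49507484 and 49507412. Joining sites within 100 bases of each other gave 3 clusters in each gene, single sites included. In the span of MRE11 sites 1 to 8, 8 of 21 adenosines were listed, against 4 of 23 in the span of sites 9 to 12.

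The surroundings of the 3 sites of each gene found in the most samples are printed here, since these carry most of the values that follow. Each line gives 14 bases on either side of the edited adenosine, which is the capital letter, as RNA from the GRCh38 reference.
MRE11 site 9, chr11:94468411-94468439: ugguuuuacccuuaAgaacaauauagaac
MRE11 site 6, chr11:94468614-94468642: gugaaagaaaucugAggacaaaaacacuu
MRE11 site 12, chr11:94468347-94468375: gauguuauaaucuuAuccucucagaguau
ERCC6 site 4, chr10:49525534-49525562: gugguaauuuugccAgagaugaauuucaa
ERCC6 site 2, chr10:49526702-49526730: uuucauuaguugaaAuucaucuccggcaa
ERCC6 site 1, chr10:49526709-49526737: aucccucuuucauuAguugaaauucaucu

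The groups of sites in both introns faced each other across inverted matches, stretches that could pair with each other within the same transcript. In MRE11, the sequence around sites 1 to 8 (chr11:94468569-94468667) matched the reverse complement of that around sites 9 to 12 (chr11:94468357-94468455) over 99 bases at 79.8% identity, with 113 bases between the arms. In ERCC6 intron 4, the sequence around sites 1 to 3 (chr10:49526651-49526769) matched the reverse complement of that around site 4 (chr10:49525487-49525604) over 119 aligned bases at 96.6% identity, with 1046 bases between the arms. ERCC6 sites 5 and 6 had partial matches of 91 and 101 aligned bases at 78.0% and 78.2% identity to a stretch lying 719 and 745 bases upstream, which held no listed site. The MRE11 UTR site had no such match within 2500 bases. A match of at least 30 aligned bases over the edited base was therefore present at 18 of 19 sites, beside 76.3% of all listed sites, so that its presence did not set these sites apart.

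In the opposite arm, 9 of the 12 intronic MRE11 sites faced a uridine and 3 faced a cytidine, while among the 6 ERCC6 sites 3 faced a uridine, 2 a cytidine and 1 an adenosine. Since only an adenosine can be an A-to-I site, just the 1 facing adenosine could have been listed, and it was not. The stretches facing 4 of the sites above are given in the same way, the capital being the base opposite the edited adenosine.
Opposite MRE11 site 9, chr11:94468585-94468613: guucuguauuguucUugagaucaggacca
Opposite MRE11 site 6, chr11:94468382-94468410: aagugcuuuugucuUcagaacucuuucaa
Opposite MRE11 site 12, chr11:94468649-94468677: gacaguuuaaaggaCaagauuauaaaguc
Opposite ERCC6 site 4, chr10:49526693-49526721: uugaaauucaucucCggcaaaauuaccac
MRE11 sites 9 and 6 thus faced a uridine, and MRE11 site 12 and ERCC6 site 4 a cytidine.

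Next to the edited base, 17 of the 19 sites had an A (9 sites) or a U (8 sites) on the 5′ side, with a C at ERCC6 site 4 and a G at MRE11 site 6. Among the 4145 listed sites with an A in the reference, 34.0% had an A, 49.1% a U, 13.1% a C and 3.84% a G there. On the 3′ side, 10 of 19 sites had a G, beside 44.0% of all listed sites.

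**Figure D1:**
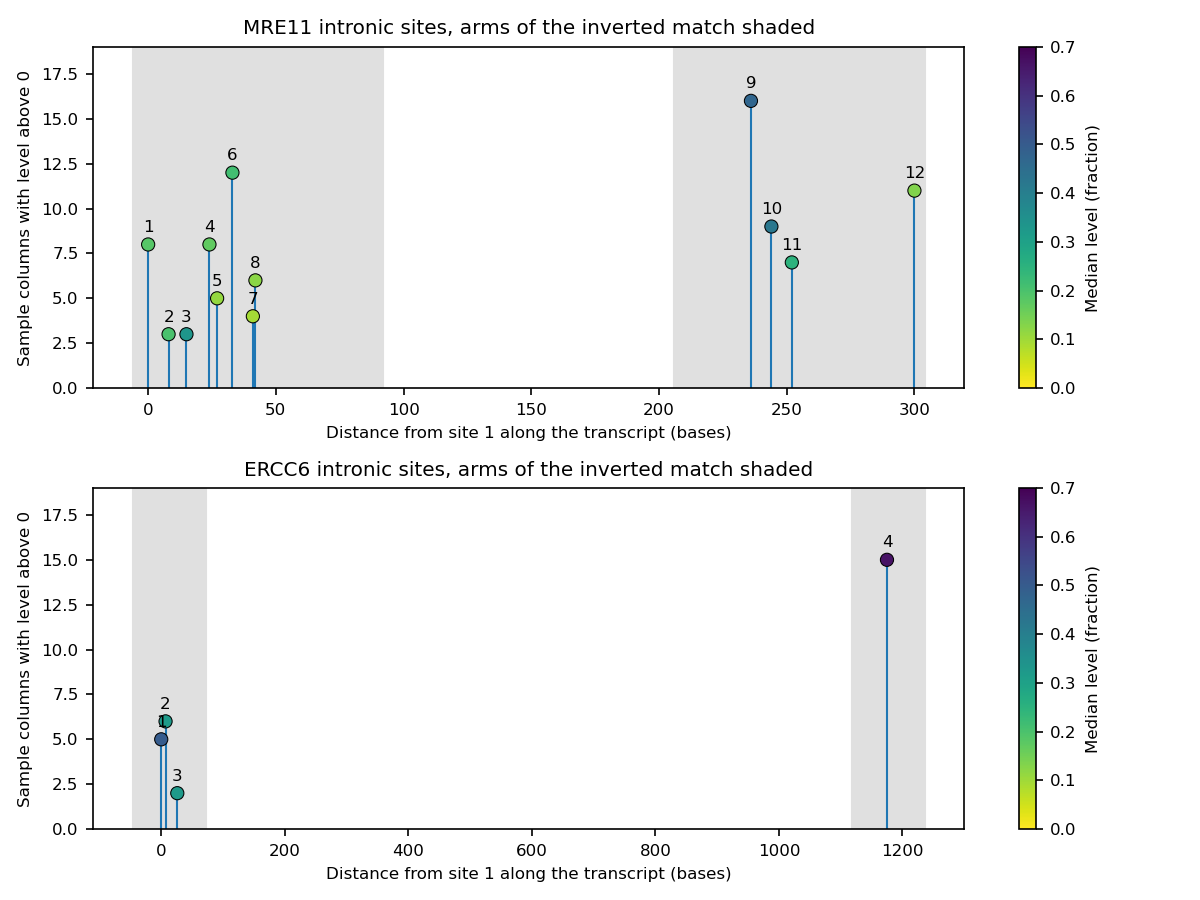
Number of samples (vertical axis) with a level above 0 at each intronic site of MRE11 (top, sites 1 to 12) and ERCC6 (bottom, sites 1 to 4) against the distance from site 1 in bases, coloured by the median level, with the arms of the inverted matches shaded. All 16 sites had a match, and a match was kept only if it covered the edited base. MRE11 site 9 and ERCC6 site 4 were found in the most samples, 16 and 15.

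MRE11 sites were found, that is had a level above 0, in a median of 7 samples each (range 2 to 16), and ERCC6 sites in a median of 3.5 (range 1 to 15), beside 3 over the 4092 listed sites with levels. A level of 0 in the list can stand for unedited reads, for no reads at the site or for edited reads that no tool called. These cannot be told apart here, and the depth at each site is unknown. At least 1 MRE11 site was found in 25 of the 96 samples and at least 1 ERCC6 site in 24, while 6 samples had both and 53 neither. With the etoposide and romidepsin samples of the single-agent time course left out, whose column names are in doubt, an alternative chosen after seeing the data, these were 21 and 19 of 86 samples.

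The levels above 0 are given as a description, without a test. The median of the 94 MRE11 levels was 0.210 (range 0.05 to 1), that of the 31 ERCC6 levels was 0.500 (range 0.0435 to 0.843), and that of all 23123 levels was 0.333. Of the levels, 57.4% in MRE11 and 90.3% in ERCC6 were at least 0.2, beside 72.1% over the list. Each of the 4092 sites with levels had to exceed this level in at least 1 sample of the study to enter the list.

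MRE11 site 9 was found in 16 samples, where its level ran from 0.0556 to 1 with a median of 0.472. Its neighbour 8 bases downstream, site 10 at 94468417, was found in 9 samples with a median of 0.423 (0.0526 to 0.667), and site 11 at 94468409 in 7 with a median of 0.250 (0.143 to 0.333). Site 12, at the far end of the arm, had a median of 0.133 over 11 samples and never exceeded 0.321. Within the same samples, site 9 was higher than site 11 in 5 of 5 and higher than site 12 in 6 of 9, while sites 9 and 10 were not ordered, site 10 being the higher in 4 of 7.

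In the other arm, MRE11 site 6 at 94468628 was found most often, in 12 samples with a median of 0.213 (0.0526 to 0.750). Sites 1 and 4, at 94468661 and 94468637, were found in 8 samples each with medians of 0.185 and 0.170. The adjacent adenosines of sites 7 and 8, at 94468620 and 94468619, were found in 4 and 6 samples with medians of 0.0940 and 0.121, and sites 2, 3 and 5 in 3 to 5. Site 9 of the facing arm was higher than site 4 in 6 of 6 shared samples and higher than site 8 in 5 of 5, while it was higher than site 6 in 6 of 9 and higher than site 1 in 4 of 7, and the ranges over samples overlapped for all of these sites. Site 13 in the 3′ UTR was found in 2 samples, at 0.120 with SN-38 after DMSO and at 0.317 in the sample labelled romidepsin for 24 h.

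In ERCC6, site 4 gave nearly as many levels as the other 5 sites together, 15 of 31. Its level ran from 0.240 to 0.843 with a median of 0.667, the highest median of the 19 sites. The 3 sites of the facing arm were found in 5, 6 and 2 samples with medians of 0.500, 0.317 and 0.322. Site 4 and any of sites 1 to 3 were found together in 2 samples of the 22 with either. In MRE11, both arms had a site in 14 samples of the 24 with either. Sites 5 and 6, called by RED-ML alone, were found in 2 samples, both at 0.600, and in 1 sample, at 0.500.

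**Figure D2:**
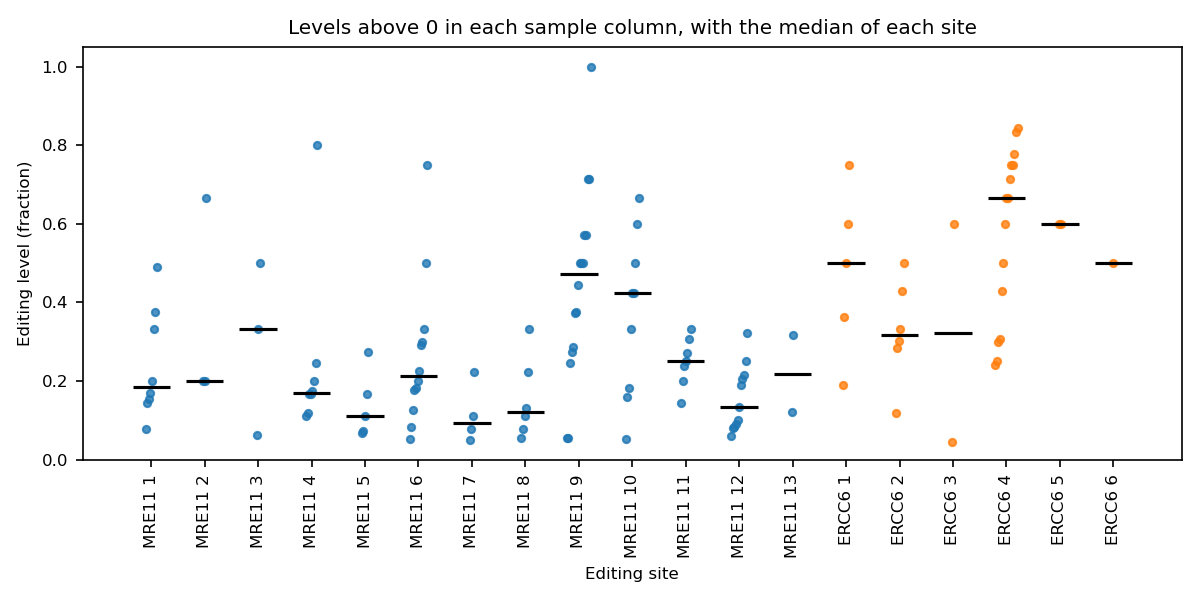
Editing level (fraction, vertical axis) at each MRE11 and ERCC6 site in every sample where it was above 0 (points), with the median of the site (black line). The medians ran from 0.0940 at MRE11 site 7 to 0.667 at ERCC6 site 4, and the points of neighbouring sites overlapped.

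The sites differed in which tools called them. Of the 13 MRE11 sites, 7 were called by REDItools, RED-ML and SPRINT, 4 by a pair of tools, and sites 2 and 7 by SPRINT alone, which looks for runs of the same substitution. Of the 6 ERCC6 sites, 2 were called by all 3 tools, 2 by a pair and 2 by RED-ML alone. Sites called by all 3 tools made up 24.7% of the list.

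MRE11 sites were found together in few samples. Sites of the same arm lie close enough for the same reads to cover several. Their number in a sample is therefore not a count of separate detections. Of the 94 MRE11 levels, 71 came from 10 samples in which 6 to 9 of the 13 sites were found, another 15 samples had 1 or 2, none had 3 to 5, and 71 samples had none. ERCC6 was found as 1 site in 18 samples, as 2 in 5 and as 3 in 1.

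The 10 samples with 6 or more MRE11 sites, a number set after the values were seen, came from several treatments. Etoposide followed by actinomycin D gave 6, 8 and 9 sites at 2, 4 and 6 h, and SN-38 followed by actinomycin D gave 6 at 2 h. Actinomycin D alone for 6 h gave 6, DMSO alone gave 8 at 36 h and 7 at 48 h, and the first romidepsin sample at 6 h gave 6 among 269 listed sites, while the second romidepsin sample at 6 h gave 0 among 102. The samples labelled romidepsin gave 8 at 24 h and 7 at 48 h, and the samples labelled etoposide gave 2 at 24 h and none at 6, 12, 36 and 48 h. For most sites of this time course that the study tested by Sanger sequencing, the level given for etoposide stood in the column named romidepsin and the reverse, so that which of these drugs a time-course value belongs to was not settled here.

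**Figure D3:**
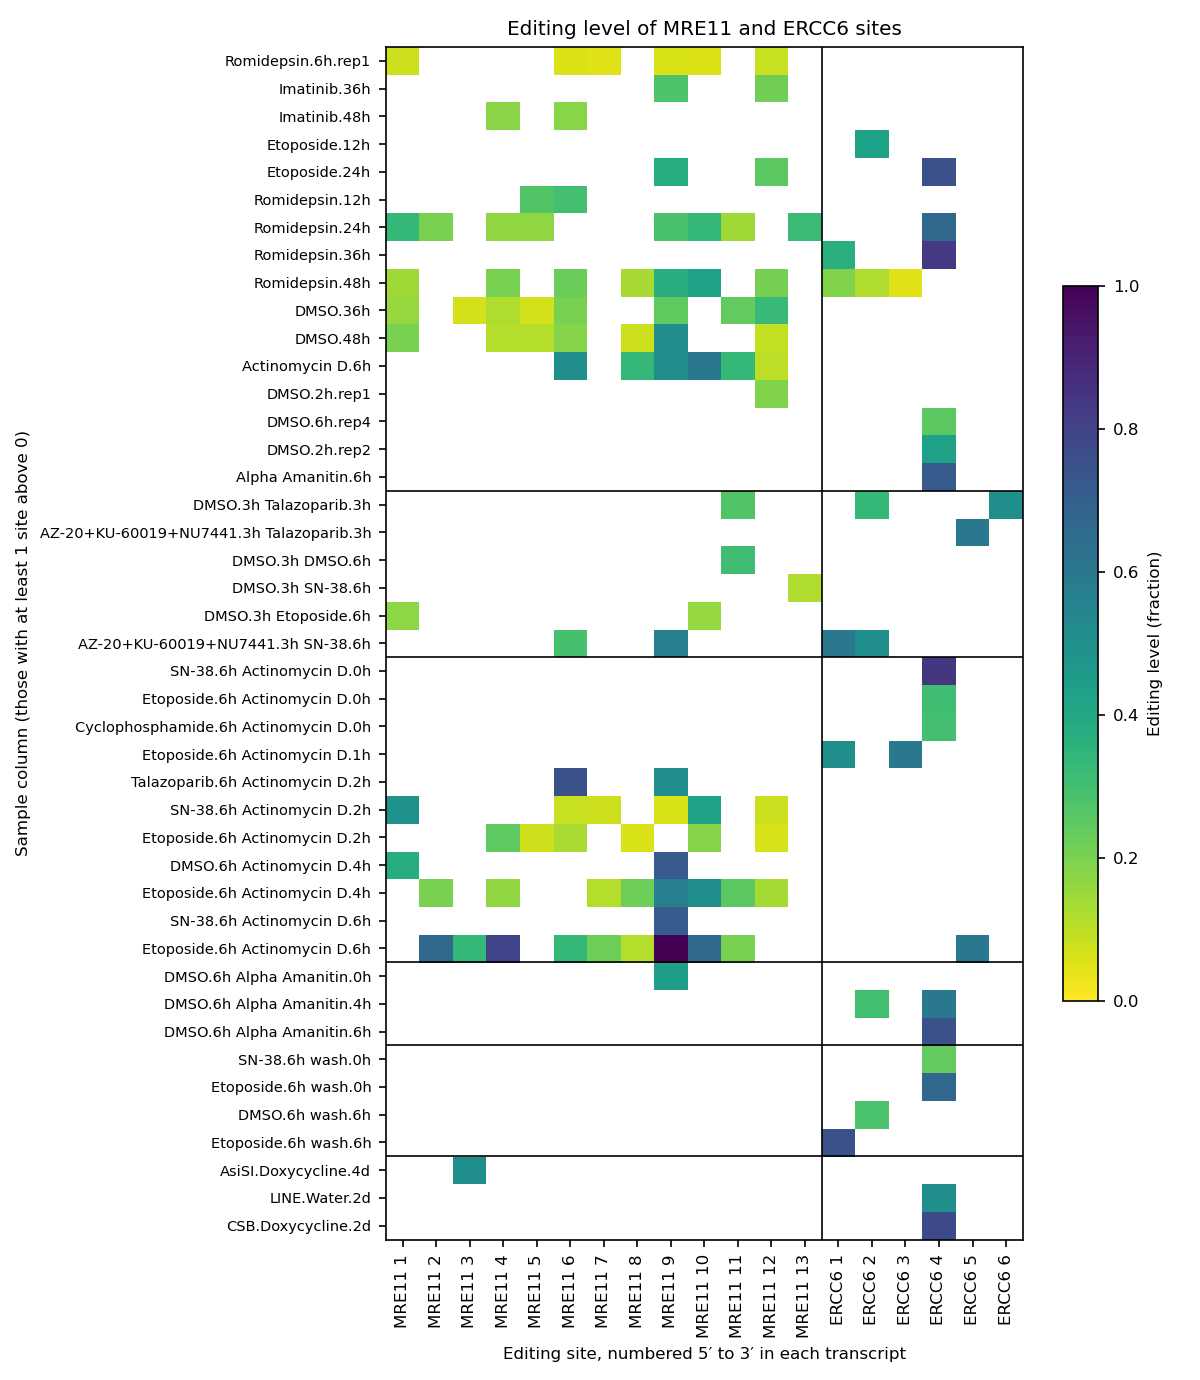
Editing level (colour, fraction from 0 to 1) of the 13 MRE11 and 6 ERCC6 sites (horizontal axis) in the 43 samples (vertical axis, by label) with at least 1 of them above 0, with black lines between kinds of treatment and white for a level of 0. MRE11 levels gathered in 10 rows with 6 to 9 sites, whereas ERCC6 levels were spread as 1 to 3 sites over 24 rows.

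The number of sites found in a sample differed widely over the whole list, from 30 to 633 with a median of 235.5, and was lowest in the derivative lines, where 30 to 129 sites were found. Across the 96 samples, the number of MRE11 sites found had a Spearman correlation of 0.45 with the number of all other listed sites. That of ERCC6 sites had one of 0.084. In each sample, both counts come from the same library and its depth. The samples with 6 or more MRE11 sites had 191 to 633 listed sites. Of the 3 samples with the most listed sites, DMSO at 48 h had 7 MRE11 sites while imatinib at 36 and 48 h had 2 each. ERCC6 sites were found in 2 samples of the derivative lines with fewer than 80 listed sites.

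**Figure D4:**
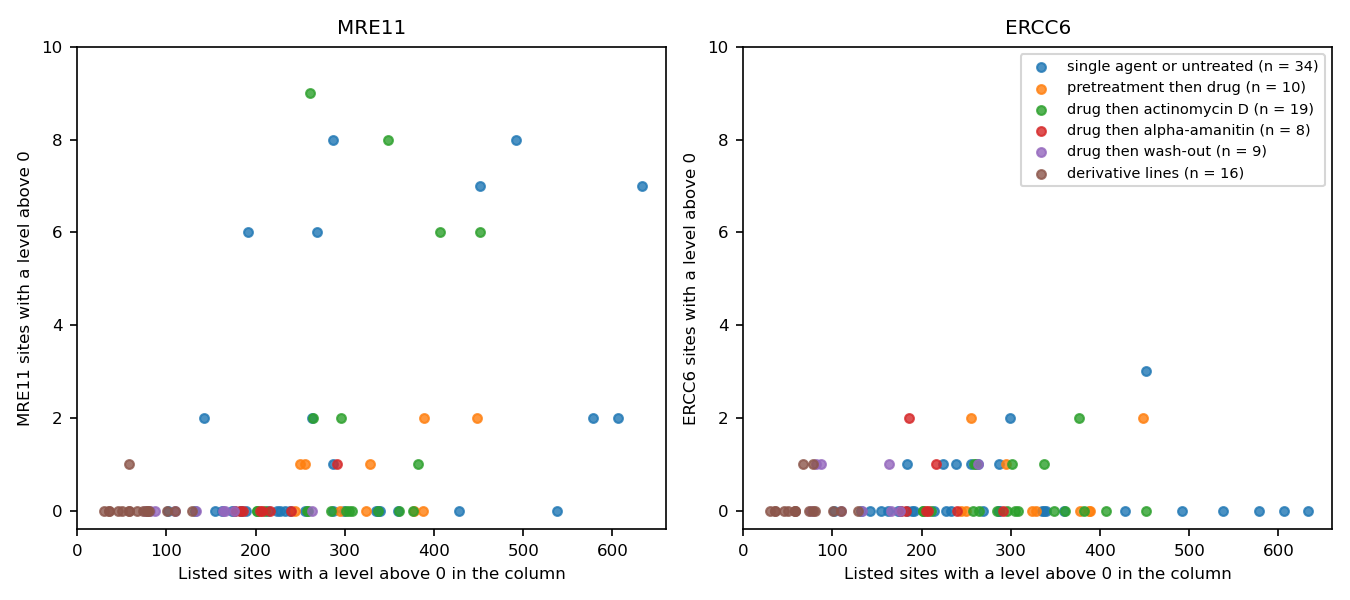
Number of MRE11 sites (left) and ERCC6 sites (right) with a level above 0 in each of the 96 samples (points, coloured by kind of treatment) against the number of all listed sites with a level above 0. MRE11 counts of 6 to 9 occurred at 191 to 633 listed sites, and most samples stood at 0 for both genes.

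For the genotoxic drugs, 27 samples given etoposide, SN-38, talazoparib or cyclophosphamide were compared with 14 given DMSO, within 14 strata of the same second agent (or DMSO pretreatment) and times. At least 1 MRE11 site was found in 4 of 13 etoposide, 3 of 7 SN-38, 2 of 4 talazoparib and 0 of 3 cyclophosphamide samples, against 3 of 14 DMSO samples. The most sites in any 1 sample were 9 with etoposide, 6 with SN-38, 2 with talazoparib and 2 with DMSO. Mean MRE11 sites per sample were 1.33 ± 2.63 with a drug (SD, n = 27) and 0.286 ± 0.611 with DMSO (SD, n = 14), a difference of 0.95 weighted over strata and smaller than the spread between drug samples. The mean of all listed sites was 256 ± 102 and 237 ± 67.2.

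No member site was called by the two-sided exact test stratified by treatment set. Benjamini-Hochberg adjustment ran over the 2903 sites that could be tested. All 19 could be tested and 0 were called, as were 0% of the sites tested over the whole list. At an unadjusted p of at most 0.05 there were 0 member sites, beside 55 sites in all or 1.89%, and Fisher's exact test without strata called 0, with 0 members and 56 sites in all at an unadjusted p of at most 0.05. The lowest unadjusted exact p of a member was 0.287, for MRE11 site 10 at 94468417, found in 5 of 27 drug samples and 0 of 14 DMSO samples. No member was found in more than 5 of the 27 drug samples or 2 of the 14 DMSO samples. That is too few for a member to be called alone at this adjustment, so 0 calls do not show that the groups were alike.

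ERCC6 site 4 at 49525548 was found in 5 of 27 drug and 2 of 14 DMSO samples, with an exact p of 1.0. At least 1 ERCC6 site was found in 5 of 13 etoposide, 2 of 7 SN-38, 1 of 4 talazoparib and 1 of 3 cyclophosphamide samples, against 3 of 14 DMSO samples. Mean ERCC6 sites per sample were 0.407 ± 0.636 with a drug and 0.286 ± 0.611 with DMSO (SD, n = 27 and 14).

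The MRE11 difference was largest in the actinomycin D samples. In these, the mean was 2.29 ± 3.38 sites over 14 drug samples and 0.400 ± 0.894 over 5 DMSO samples (SD). After DMSO pretreatment, 1 MRE11 site was found with talazoparib for 3 h and 0 with DMSO, and 2 with etoposide, 1 with SN-38 and 1 with DMSO for 6 h. In the alpha-amanitin samples it was 0 over 4 etoposide samples and 0.250 ± 0.500 over 4 DMSO samples, and in the 9 wash-out samples no MRE11 site was found after etoposide, SN-38 or DMSO. The wash-out samples had 76 to 263 listed sites, against 202 to 452 in the actinomycin D samples, and the part of this in the result was not tested. With the etoposide samples left out, an alternative chosen after seeing the data, the weighted difference over all sets was 0.58.

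The samples with actinomycin D or alpha-amanitin also show what was found while transcription was blocked. After etoposide, the number of MRE11 sites was 0 at 0 h and at 1 h of actinomycin D, 6 at 2 h, 8 at 4 h and 9 at 6 h. Over the same samples the number of all listed sites was 301, 376, 407, 348 and 261, so that MRE11 sites made up 3.45% of the sites found at 6 h. The median level of the MRE11 sites found was 0.0982 at 2 h, 0.211 at 4 h and 0.333 at 6 h, and site 9 reached 1 at 6 h. The sites found differed between these times, so the medians do not follow the same sites. After DMSO, the number of MRE11 sites was 0 at 0, 1, 2 and 6 h and 2 at 4 h. After SN-38 it was 0, 6 and 1 at 0, 2 and 6 h, after talazoparib 0, 2 and 0, and after cyclophosphamide 0 at all 3 times. Each of these values rests on 1 sample.

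**Figure D5:**
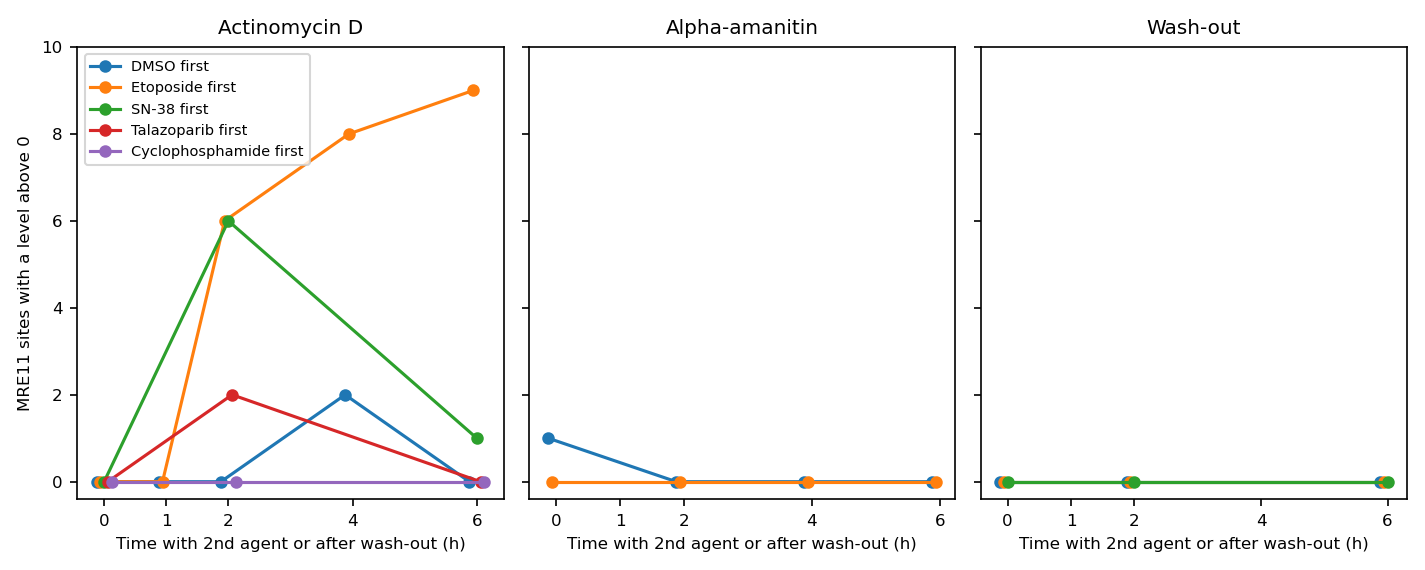
Number of MRE11 sites with a level above 0 (vertical axis) by time in hours with actinomycin D (left) or alpha-amanitin (middle) or after wash-out (right), with 1 sample per point, lines joining samples of the same first agent and points set slightly apart in time. Counts reached 6, 8 and 9 at 2, 4 and 6 h of actinomycin D after etoposide and stayed at 0 in all wash-out samples.

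Over both inhibitors, 20 samples at 1 h or later had a mean of 1.70 ± 2.98 MRE11 sites (SD) and 7 samples at 0 h one of 0.143 ± 0.378, beside means of 281 and 272 listed sites. No site of the list was called by the exact test stratified by inhibitor and first drug, two-sided, with Benjamini-Hochberg adjustment (0% of the 2475 sites tested), and so 0 of the 17 member sites that could be tested. At an unadjusted p of at most 0.05 there were 0 member sites beside 103 sites or 4.16%, and Fisher's exact test without strata called 0, with 0 members and 92 sites in all at that unadjusted p. MRE11 site 9 at 94468425 was found in 6 of 20 samples under transcription block and in 1 of 7 at 0 h (exact p = 0.632). Here too, no member could have been called alone at this adjustment, so 0 calls do not show that later samples were like those at 0 h.

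ERCC6 site 4 went the other way, being found in 3 of 7 samples at 0 h and 2 of 20 later (exact p = 0.111, adjusted p = 1.0 over all sites tested). In the actinomycin D samples alone it was found at 0 h after SN-38 at 0.843, after etoposide at 0.308 and after cyclophosphamide at 0.300, and in 0 of 14 later samples (exact p = 0.0222, adjusted p = 1.0). In these samples alone, 1 of the 16 member sites tested had an unadjusted p of at most 0.05, beside 84 of 2160 sites or 3.89%. With alpha-amanitin after DMSO it was found at 4 h at 0.600 and at 6 h at 0.750, and it was also found with alpha-amanitin alone for 6 h at 0.714.

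Neither gene had a site in the mirin samples. With mirin after DMSO, 0 of 19 sites were found among 378 listed sites, and with mirin after the kinase inhibitors 0 of 19 among 324. The matched sample with DMSO after DMSO for 6 h had MRE11 site 11 at 94468409 at 0.308 among 250 listed sites. With SN-38 or etoposide after the kinase inhibitors, the first had MRE11 site 9 at 0.571 and site 6 at 0.291 and ERCC6 sites 1 and 2 at 0.600 and 0.500, among 448 listed sites, and the second had none among 388. With 1 sample each, these values have no replicate check.

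The 4 samples of the MRE11A shRNA line had no MRE11 and no ERCC6 site, in water and in doxycycline at 5 and at 8 days. They also had few listed sites, 58 and 50 in water and 35 and 46 in doxycycline, and the study's sample table gives this line the fewest reads. MRE11 sites were also absent from the 8 samples of the Cas9, LINE, CSB and LIG3 lines, which had 30 to 109 listed sites, so that a change in the MRE11A line was not detectable. In the AsiSI line, 1 MRE11 site, site 3 at 94468646, was found at 0.500 with doxycycline for 4 days. Of the member sites, 1 could be tested between the 4 MRE11A and the 8 other samples, ERCC6 site 4 (0 of 4 against 2 of 8, Fisher's exact test, two-sided, p = 0.515). Of the 409 sites tested 0% were called, none had an unadjusted p of at most 0.05, and the smallest p over all sites was 0.0606. With 4 against 8 samples, no site could have been called alone after Benjamini-Hochberg adjustment. The absence of calls therefore does not show that the lines were alike.

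In the CSB line, whose shRNA is labelled for the product of ERCC6, ERCC6 site 4 was found at 0.778 with doxycycline for 2 days and was at 0 in water, among 67 and 74 listed sites. No other member site was found in this line. The LINE line had the same site at 0.500 in water and at 0 in doxycycline.

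Listed sites were also counted in other genes of DNA repair. Of 87 repair genes, 14 or 16.1% held at least 1 listed site, beside 6.27% of the 20046 protein-coding genes. Without MRE11 and ERCC6, which were chosen with their sites known, 12 of 85 or 14.1% did, with 31 sites. Genes were not matched for length or expression, and the shares were not compared by a test. The partners of MRE11, RAD50 and NBN, had none. In double-strand break repair, 6 of 29 genes had 17 sites in all, 1 to 8 each, with 4 in the helicase BLM, 2 in BRCA1, and 1 each in PALB2, BRIP1 and XRCC5, the last without levels. In nucleotide excision repair, 3 of 18 genes had sites, with 3 in RAD23B and 2 in the 3′ UTR of ERCC4 beside those of ERCC6. In base excision and single-strand break repair, NEIL1, a DNA glycosylase, had 2 coding sites, found in 26 samples, and TOP1, the topoisomerase that SN-38 traps, had 5, found in 7. In the Fanconi anaemia pathway, FANCA had 1 site, found in 2 samples. Among the repair genes, NEIL1 alone was found in more samples than MRE11 (25) and ERCC6 (24). No listed site lay in the genes of the 3 ADAR enzymes.

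Among 236 other genes with at least 5 listed sites, those whose number of sites found varied most like that of MRE11 over the 96 samples were NUCKS1 (Spearman rho = 0.56), PNISR (0.48) and KCTD20 (0.47). For ERCC6 these were the lncRNA gene ENSG00000286385 (0.29), CD164 (0.24) and MRPS9 (0.22). Within a sample, the counts of all genes share its depth, and with 0 in most samples the ERCC6 values are weak. The numbers of MRE11 and ERCC6 sites had a rho of 0.026 with each other.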

How the data were processed

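Total RNA of K562 cells and derivatives was sequenced by the authors after rRNA removal with a strand-specific protocol. Per the labels and the study's methods, reads were aligned to GRCh38 with TopHat2 2.1.1, duplicates were removed with Picard 2.0.1, SAMtools 1.9 sorted the alignments, and sites were called in each sample with REDItools, RED-ML and SPRINT. The deposited list gives the editing level as a fraction, averaged by the authors over the tools that called a site. Sites in repeats and in regions of low sequence uniqueness had been removed, as had sites below the level and recurrence minimums. Of 130 sample columns, 96 matched a sample and 34 were not used, and 57 sites found by Sanger sequencing only had no levels.

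Detection, a level above 0, was tested per site with exact conditional tests, stratified where stated, and Benjamini-Hochberg adjustment at 0.05 (Python 3.11.15, SciPy 1.17.1). The tests were first run on simulated data with large planted differences in detection. This does not show how they perform at sites found as rarely as the members. Inverted matches were searched with BLAST 2.17.0 (word size 7, E-value 0.001) using 75 bases on each side of a site. A repeat annotation was not used here. All sites of MRE11 and ERCC6 were named, with repair genes holding a listed site (some are not reported here), the 3 genes most alike by Spearman correlation, and sequences of the 3 sites found in most samples. The members and gene lists were chosen with earlier results of these data known.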

Additional observations from a re-analysis of the deposited data

Results flagged for a closer look

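ERCC6 site 4, at 49525548, had listed levels that differed in opposite directions in 2 derivative lines between doxycycline and water at 2 days. Its level with doxycycline minus that in water was 0.778 in the CSB shRNA line and -0.5 in the LINE line, in each case because it was at 0 in the other sample. A 0 can stand for no reads at the site, so a change in editing was not shown. With doxycycline and in water, 67 and 74 listed sites were found in the CSB line. In the LINE line these were 36 and 78. Each value rests on 1 sample, and the difference between the lines was not tested.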

How the results depend on the processing

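All 46 alternative counts of called sites, over the list and over the member sites, were 0 as in the results given, including those without each MRE11A sample in turn (0 to 0), so these counts say little about stability. No paired analysis was possible because the groups compared share fewer than 2 replicate numbers, and samples were matched by second agent and times, or by inhibitor and first drug, instead. The difference in MRE11 sites per sample between drugs and DMSO (0.95) was 0.4241 at a level of at least 0.2, 0.5789 without etoposide, 0 with wash-out samples alone, 0.1454 with the etoposide and DMSO time course added, 2.2941 with actinomycin D samples alone and -0.25 with alpha-amanitin samples alone, and that in ERCC6 sites (0.19) was 0.0506 for sites in at least 5 samples, 0.5294 with actinomycin D alone and -0.75 with alpha-amanitin alone. The time-course value rests on column names in doubt: MRE11 sites at 6, 12, 24, 36 and 48 h numbered 0, 0, 2, 0 and 0 in the columns named etoposide and 0, 2, 8, 0 and 7 in those named romidepsin, the second sample being used at 6 h. The difference in MRE11 sites between later samples and 0 h (1.42) was 0.8072 at a level of at least 0.2, 2.2222 with actinomycin D alone, -0.5 with alpha-amanitin alone and 0.7465 without etoposide, and that in ERCC6 sites (-0.15) was -0.4259 with actinomycin D alone and 0.5 with alpha-amanitin alone. The median number of samples per MRE11 site fell from 7 to 3 at a level of at least 0.2. Over all listed sites with levels it fell from 3 to 2. ERCC6 sites were found in 15 of the 48 samples with at least the median number of listed sites. These alternatives kept other samples, sites or levels, and the cause of the changes was not tested. Leaving out the etoposide samples, the etoposide and romidepsin time course or the derivative lines was chosen after seeing the data. Of the 52 alternative values other than counts of calls, 30 were within 1.5 times of those given, 18 differed by more without changing sign and 4 changed sign.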
